A study of Mus musculus with 58 samples.

Results

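The genes described here mark the 2 cell layers of blood vessels in mouse quadriceps muscle. There were 35 of them, taken by name, of which 25 are known from endothelial cells and 10 from mural cells, among 18193 genes with a probe set of exactly 1 gene symbol. The 35 genes had 58 probe sets, 38 endothelial and 20 mural, and 2 more probe sets shared between Ramp2 and another symbol were not used. The study profiled total RNA of quadriceps from 34 male mice in 7 groups, as 3 experiments on Affymetrix arrays. Experiment 1 held 6 wild-type mice of the FVB strain and 6 mice each of lines 20b and 41, both of which carry the CUGexp transgene on the FVB background, and all 18 mice were 6 months old. Experiment 2 held 3 Clcn1-null mice, which lack the muscle chloride channel and are myotonic, and 3 wild-type mice of the BALB background strain, aged 3 months. Experiment 3 held 5 Mbnl1-null mice, which lack a splicing regulator that binds CUG repeats, and 5 FVB wild-type mice, aged 3 months. No group received a drug or other agent. The promoter that drives the transgene is not given in the sources used here, and each line stands for 1 transgenic line, so line and transgene cannot be told apart. The numbers in the sample titles are read as mice.

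Capillaries of skeletal muscle are tubes of endothelial cells wrapped by pericytes, and arterioles carry smooth muscle cells in place of pericytes. Pericytes and smooth muscle cells together are called mural cells. Endothelial cells depend on VEGF receptors, the angiopoietin receptor Tek and junction proteins of the cadherin, claudin and immunoglobulin families, while mural cells are recruited through the PDGF receptor Pdgfrb and kept in place by Notch3 and angiopoietin signals. In a whole-muscle extract, fewer vessel cells and less of an RNA per vessel cell cannot be told apart.

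Values are log2 probe set intensities, and each gene was read at its brightest probe set. All 35 genes were tested in experiments 1 and 2 and 34 in experiment 3, where Cnn1 read under an intensity of 32 in all 10 mice. Of the 58 probe sets, 55, 55 and 50 were tested in experiments 1, 2 and 3. A gene is called when its limma p, adjusted by Benjamini-Hochberg over all probe sets of the experiment, was under 0.05. Changes are log2 differences, mutant minus wild type, with the standard error (SE) of the fit. In experiment 1, 70.3% to 72.3% of probe sets reached an intensity of 32 on the 430A arrays and 49.3% to 51.0% on the 430B arrays. On the arrays of experiment 3, 35.7% to 36.4% did. The scales of the experiments differ, so no level was compared between them. Endothelial and mural markers were read in the wild-type muscle of every experiment, with Pecam1 at 10.99 to 11.51, 8.41 to 9.48 and 9.15 to 9.32 in experiments 1 to 3. Of the mural genes, Cnn1 in all mice and Cspg4 in some wild-type mice lay under an intensity of 32 in experiment 3. Clcn1 was lower in Clcn1-null mice by 1.42 (SE 0.28, limma adjusted p = 0.0507), and Mbnl1 fell by 0.73 (SE 0.06) in Mbnl1-null mice (limma adjusted p = 4.83e-05). Where these probe sets lie relative to the deleted parts is not known here. Some mice stood apart. FVB wild-type mice 1 and 2 of experiment 1 had mean adipocyte marker levels of 12.63 and 13.17, against 10.26 to 10.84 in the other 4. Line 41 mouse 3 had the lowest mean of the 25 endothelial genes in experiment 1, at 9.74.

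The 250 bases upstream of the annotated start are shown for 3 endothelial and 3 mural genes, because most genes of each class lay below 0 in both lines. They are the called genes with the largest falls in either line among those the table of promoters holds. Sox17, Cdh5, Myh11 and Pdgfrb, which fell more than some of the genes shown, are not in it. The sequences are from RefSeq (GRCm38.p6), 5′ to 3′ on the gene's strand. Capitals mark matches, on either strand, to 5 searched hexamers: AGGAAG (an ETS-type core), AACAAT (a SOX-type core), TGGGAA (an RBPJ-type core), GGGCGG (a GC box) and TATAAA.
Mcam (forward strand, chr9:44134408-44134657): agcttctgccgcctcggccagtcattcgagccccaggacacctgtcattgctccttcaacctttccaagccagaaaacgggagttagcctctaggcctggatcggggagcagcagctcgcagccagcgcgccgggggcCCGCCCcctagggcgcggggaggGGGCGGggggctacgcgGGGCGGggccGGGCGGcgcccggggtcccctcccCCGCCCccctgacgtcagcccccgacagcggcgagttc
Cldn5 (forward strand, chr16:18776597-18776846): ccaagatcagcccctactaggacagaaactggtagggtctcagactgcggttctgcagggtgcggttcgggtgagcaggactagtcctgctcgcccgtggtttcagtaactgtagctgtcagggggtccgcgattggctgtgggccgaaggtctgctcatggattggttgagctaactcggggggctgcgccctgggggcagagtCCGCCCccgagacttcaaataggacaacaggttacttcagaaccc
Tek (forward strand, chr4:94739039-94739288): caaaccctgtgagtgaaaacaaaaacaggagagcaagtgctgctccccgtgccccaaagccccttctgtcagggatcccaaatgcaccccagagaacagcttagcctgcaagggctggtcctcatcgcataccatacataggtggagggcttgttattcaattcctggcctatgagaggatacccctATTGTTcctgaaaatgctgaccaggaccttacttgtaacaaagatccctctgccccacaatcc
Kcnj8 (reverse strand, chr6:142571615-142571864): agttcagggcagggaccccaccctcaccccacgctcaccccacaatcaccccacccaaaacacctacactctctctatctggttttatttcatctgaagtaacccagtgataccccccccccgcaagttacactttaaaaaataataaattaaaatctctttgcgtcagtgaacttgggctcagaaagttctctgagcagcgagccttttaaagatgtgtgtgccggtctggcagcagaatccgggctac
Notch3 (reverse strand, chr17:32166891-32167140): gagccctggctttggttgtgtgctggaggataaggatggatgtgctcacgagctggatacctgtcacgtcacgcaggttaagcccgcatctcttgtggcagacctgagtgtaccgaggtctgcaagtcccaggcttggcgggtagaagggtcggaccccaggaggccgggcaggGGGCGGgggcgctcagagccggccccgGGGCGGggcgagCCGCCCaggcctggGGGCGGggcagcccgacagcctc
Rgs5 (forward strand, chr1:169655251-169655500): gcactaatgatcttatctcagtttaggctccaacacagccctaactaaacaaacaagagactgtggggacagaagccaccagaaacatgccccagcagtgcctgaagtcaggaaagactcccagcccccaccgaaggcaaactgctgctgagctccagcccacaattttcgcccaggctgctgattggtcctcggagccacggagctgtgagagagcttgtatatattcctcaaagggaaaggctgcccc
All matches to GGGCGG were in Mcam, Cldn5 and Notch3 (5, 1 and 4), Tek held 1 AACAAT match, and Kcnj8 and Rgs5 held none of the 5 hexamers. The table of promoters matched 20 of the 35 genes, 14 endothelial and 6 mural. AGGAAG was in 10 of the 18 windows of the endothelial genes and in 0 of the 6 mural windows, against 29.5% of 32851 windows of the same length. GGGCGG was in 8 and 3 of these windows and in 32.7% of all, AACAAT in 3 and 1 and in 9.42%, TGGGAA in 5 and 1 and in 21.6%, and TATAAA in 2 and 0 and in 12.4%. A CArG box, the motif of serum response factor, was in 0 of either class and in 1.47% of all windows. AGGAAG and TGGGAA share the letters GGAA. These matches describe letters in a window and not binding.

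The first comparison, of line 20b with FVB wild type, addresses the effect of CUG repeat RNA on muscle transcripts. Of the 25 endothelial genes 15 fell, led by the adhesion molecule Mcam, the tight junction gene Cldn5, the transcription factor Sox17 and the angiopoietin receptor Tek, and 0 rose. Of the 10 mural genes 5 fell, led by the pericyte potassium channel Kcnj8 and the smooth muscle myosin Myh11, and 0 rose. Among all 12955 genes tested 10.2% were called lower and 8.71% higher in this comparison. The median change was -0.51 over the endothelial and -0.31 over the mural genes, and -0.013 over all genes. All 25 endothelial genes had a change below 0, as had 53.0% of all genes, and 9 of 10 mural genes did, with Cspg4 above 0. Over probe sets, 20 of 37 endothelial and 6 of 18 mural ones fell, where 9.56% of all probe sets did. In 10 endothelial and 3 mural genes every line 20b mouse lay below every wild-type mouse, a pattern seen in 5.5% of all genes. Without FVB wild-type mice 1 and 2, 11 endothelial and 5 mural genes fell, of which 9 and 4 were among those called with all mice, and Cspg4 rose. The medians were then -0.48 and -0.34.

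Line 41 against the same wild-type mice asks the question in a further transgenic line. Of 25 endothelial genes 11 fell and 0 rose, and of 10 mural genes 7 fell and 0 rose, where 5.19% of all genes were called lower and 3.74% higher. The largest falls were in Sox17, Kcnj8, the endothelial cadherin Cdh5 and Ptprb, the endothelial receptor phosphatase. Medians were -0.43 (endothelial) and -0.45 (mural), against -0.017 over all genes. All 25 endothelial and 9 of 10 mural genes again had a change below 0, where 54.4% of all genes did. Over probe sets, 15 of 37 endothelial and 9 of 18 mural ones fell (4.61% of all). Every line 41 mouse lay below every wild-type mouse in 4 endothelial and 6 mural genes, and in 2.2% of all genes. The endothelial count rested on single mice: it was 6 without wild-type mouse 1, 6 without line 41 mouse 3, and 7 without wild-type mice 1 and 2 together, where the median was -0.45. Without line 41 mouse 3, 24 of 25 endothelial genes had a change below 0 and the median was -0.38. The mural count stayed at 7 with each mouse left out in turn.

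The means over the genes of a class give the same contrast per mouse. The mean of the 25 endothelial genes was 10.67, 10.52, 10.52, 10.62, 10.55 and 10.65 in the 6 wild-type mice of experiment 1. It was 9.90, 10.03, 9.95, 10.13, 10.22 and 10.10 in line 20b and 10.17, 10.15, 9.74, 10.19, 10.19 and 10.25 in line 41. Both lines lay wholly below wild type. The mean of the 10 mural genes was 11.14 to 11.33 in wild type (median 11.22), 10.79 to 11.10 in line 20b (median 10.98) and 10.60 to 10.95 in line 41 (median 10.79), again without overlap with wild type.

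**Figure D1:**
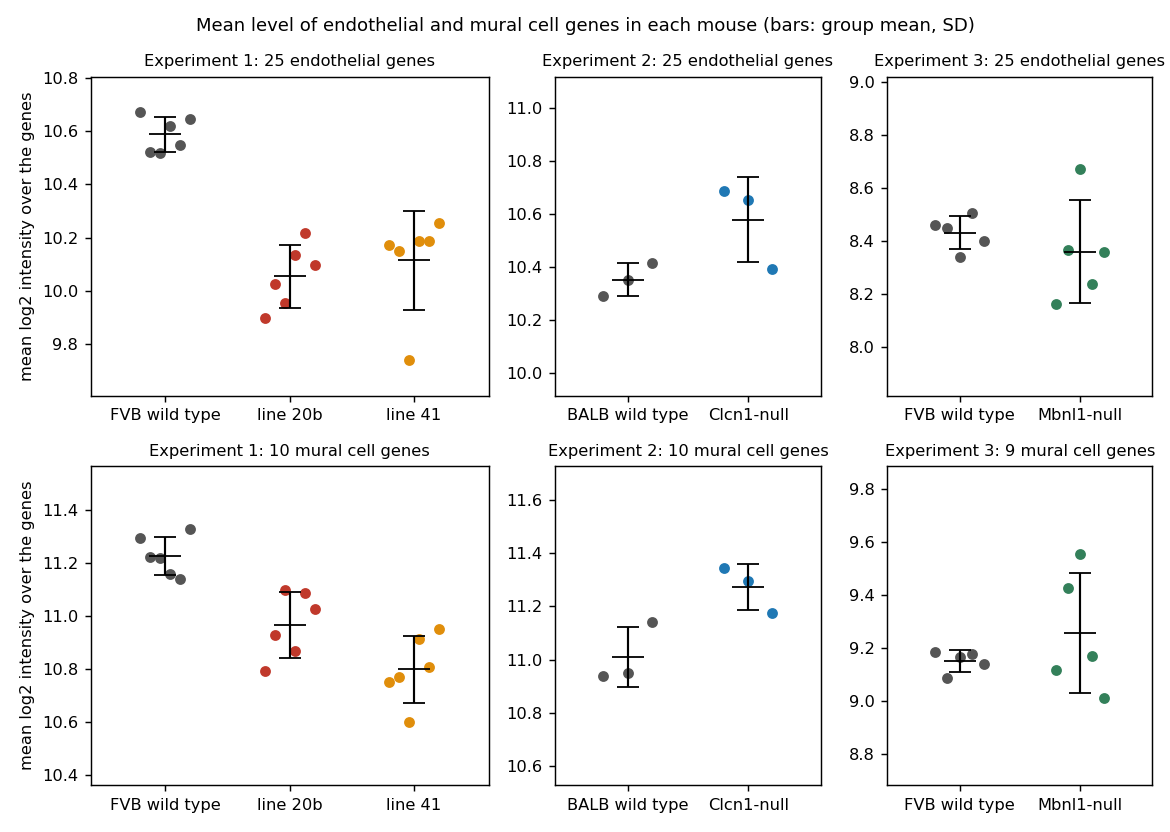
Mean log2 intensity over the endothelial genes (top) and mural genes (bottom) for each mouse in the 3 experiments, with 1 point per mouse and bars for group mean and SD. Both transgenic lines lie below wild type in experiment 1, with line 41 mouse 3 at 9.74 in the endothelial panel, while the Mbnl1-null mice lie on both sides of their wild types.

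Among the receptors of endothelial cells, Tek and Ptprb fell in both lines. Tek, whose angiopoietin ligands steady the vessel wall, ranged from 11.19 to 11.83 in wild type (median 11.56), 10.42 to 10.95 in line 20b (median 10.71) and 10.87 to 11.28 in line 41 (median 11.13). The line 20b mice lay wholly below wild type, and line 41 overlapped it. The fall was 1.76-fold in line 20b (-0.82, SE 0.11, limma adjusted p = 4.48e-05) and 1.33-fold in line 41 (-0.41, SE 0.11, limma adjusted p = 0.0284). Ptprb, the phosphatase that acts on Tek and on junctions, ranged from 12.67 to 13.02 in wild type (median 12.90), 11.91 to 12.42 in line 20b (median 12.35) and 11.73 to 12.42 in line 41 (median 12.16). Neither line overlapped wild type. It fell by 0.61 (SE 0.11) in line 20b and by 0.73 (SE 0.11) in line 41, and a dimmer probe set read -0.27 (not called) and -0.46 (called). Tie1, the orphan relative of Tek, was not called in either line (-0.30 and -0.24, SE 0.17).

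The VEGF receptors gave a mixed picture across probe sets. Kdr, the main VEGF receptor of endothelial cells, fell in line 20b (-0.41, SE 0.12, limma adjusted p = 0.0266) and was not called in line 41 (-0.29, SE 0.12). Its wild-type mice ranged from 10.37 to 11.11 (median 10.86), line 20b from 10.18 to 10.52 (median 10.47) and line 41 from 10.24 to 10.82 (median 10.53), so all groups overlapped. Flt1, the VEGF receptor that also exists as a soluble trap, was not called at its brightest probe set (-0.28 and -0.30, SE 0.14). Of its 3 other probe sets 2 fell in line 20b (-0.76 and -0.92), with the other at -0.40. In line 41 those at -0.73 and -0.48 fell, and the other read -0.55. Flt4, the VEGF receptor of lymphatic vessels, was not called (-0.29 and -0.31, SE 0.13).

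Eng, a co-receptor for TGF-beta and BMP ligands, separated the lines. It ranged from 11.17 to 11.70 in wild type (median 11.41), 10.78 to 11.10 in line 20b (median 11.01) and 11.17 to 11.69 in line 41 (median 11.35). Line 20b lay wholly below both other groups, which overlapped. The change was -0.46 in line 20b (SE 0.10, limma adjusted p = 0.0035) and -0.03 in line 41 (SE 0.10). A dimmer Eng probe set read -0.85 (called) in line 20b and -0.65 (not called) in line 41, so the difference between the lines rests on the brighter one. Robo4, a guidance receptor of quiescent endothelium, fell in line 20b (-0.50, SE 0.14, limma adjusted p = 0.023) and was not called in line 41 (-0.36, SE 0.14). Ramp2, the partner of the adrenomedullin receptor, fell by 0.43 and by 0.33 (SE 0.10 each). The model was refitted in 28 other settings at the same threshold, with other scaling, filters, weights or variance estimates, a block, or mice left out, and the Ramp2 call was lost in 15 of them in line 41 and in 0 in line 20b.

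Adhesion and junction genes held the largest endothelial change. Mcam, an adhesion molecule of endothelial and mural cells, ranged from 8.82 to 9.79 in wild type (median 9.41), 7.61 to 8.38 in line 20b (median 8.17) and 7.89 to 9.37 in line 41 (median 8.74). Line 20b lay wholly below wild type, and line 41 overlapped both. The fall was 2.35-fold in line 20b (-1.23, SE 0.21, limma adjusted p = 0.000463), and line 41 was not called (-0.67, SE 0.21, limma adjusted p = 0.0594). Cldn5, the tight junction claudin of endothelium, ranged from 7.87 to 8.92 in wild type (median 8.42), 6.68 to 8.17 in line 20b (median 7.56) and 6.99 to 8.34 in line 41 (median 7.56). The ranges overlapped, and the change was called in line 20b (-0.93, SE 0.28, limma adjusted p = 0.03) and not in line 41 (-0.83, SE 0.28, limma adjusted p = 0.082).

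Cdh5, the cadherin that defines endothelial junctions, ranged from 9.97 to 10.93 in wild type (median 10.53), 9.50 to 10.14 in line 20b (median 9.80) and 8.73 to 10.05 in line 41 (median 9.80). It fell in both lines with overlapping ranges (-0.72 and -0.87, SE 0.20, limma adjusted p = 0.0185 and 0.011). Its dimmer probe set fell in line 20b (-0.59) and was not called in line 41 (-0.31). Pecam1, the platelet and endothelial adhesion molecule, ranged from 10.99 to 11.51 in wild type (median 11.12), 10.01 to 10.65 in line 20b (median 10.46) and 10.14 to 11.03 in line 41 (median 10.71). It fell by 0.73 in line 20b, without overlap (SE 0.14, limma adjusted p = 0.00111). In line 41 the fall of 0.47, with overlap, stood close to the threshold (limma adjusted p = 0.0447), and 18 of the 28 other settings lost it.

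The remaining surface genes varied in their calls. Esam, an adhesion molecule of tight junctions, fell by 0.36 and 0.37 (SE 0.11), and its calls were lost in 9 (line 20b) and 17 (line 41) of the 28 other settings. Icam2, a leukocyte ligand, fell by 0.52 and 0.62 (SE 0.16). Emcn, a sialomucin of capillaries and veins, was lower in every mouse of both lines than in every wild-type mouse but was not called (-0.65 and -0.64, SE 0.23). Its line 41 mouse 3 read 8.89, where the other 5 mice read 10.24 to 10.59. Cd34, shared with progenitor cells of the muscle interstitium, had the smallest change of the 25 endothelial genes in line 20b (-0.15, SE 0.15), where it was not called, and was not called in line 41 (-0.09, SE 0.15) either.

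Transcription factors and secreted products varied in the strength of their calls. Sox17, a factor of arterial endothelium, ranged from 8.37 to 9.62 in wild type (median 9.01), 7.91 to 8.24 in line 20b (median 8.14) and 7.44 to 8.79 in line 41 (median 8.03). Line 20b lay wholly below wild type, and line 41 overlapped it. The falls were 1.82-fold and 1.91-fold (-0.87 and -0.93, SE 0.22), while a dimmer Sox17 probe set was called in neither line (-0.24 and -0.31). Sox18, a factor of vessel and lymphatic development, was not called (-0.56 and -0.43, SE 0.24), with 2 wild-type mice at 11.34 and 11.41 and the other 4 at 10.04 to 10.28. Erg, an ETS factor of endothelial identity, was not called (-0.61 and -0.58, SE 0.21), and its dimmer probe set read 0.08 and -0.21. Vwf, the stored clotting glycoprotein, was not called (-0.51 and -0.36, SE 0.18). Egfl7, a matrix protein secreted by endothelium, was not called at its brightest probe set (-0.23 and -0.25, SE 0.09), and 1 of 3 others fell in both lines (-0.41 and -0.28).

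Genes of endothelial transport and signalling were called in at least 1 line. Gpihbp1, which carries lipoprotein lipase to the capillary lumen, ranged from 12.27 to 12.97 in wild type (median 12.75), 11.92 to 12.29 in line 20b (median 12.17) and 11.89 to 12.15 in line 41 (median 12.03). Line 41 lay wholly below wild type, and line 20b overlapped it by 1 mouse. Gpihbp1 fell 1.47-fold in line 20b (-0.55, SE 0.10, limma adjusted p = 0.000756) and 1.57-fold in line 41 (-0.65, SE 0.10, limma adjusted p = 0.000539). Aqp1, the water channel of capillaries, lay below wild type in every mouse of both lines, and fell by 0.36 and 0.57 (SE 0.12). Nos3, the endothelial nitric oxide synthase, fell in line 41 (-0.53, SE 0.13, limma adjusted p = 0.0173) and was not called in line 20b (-0.30, SE 0.13).

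**Figure D2:**
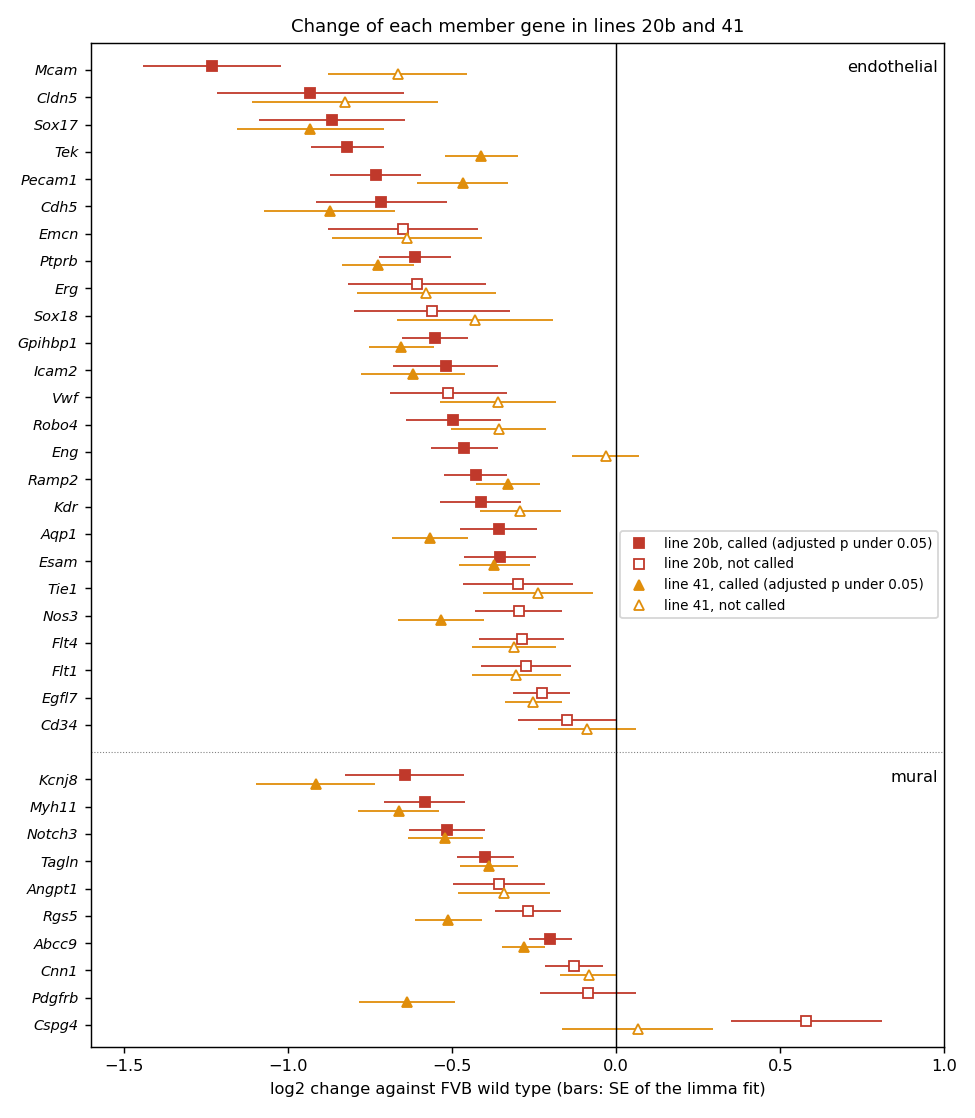
Log2 change of the 35 genes in line 20b (squares) and line 41 (triangles) against FVB wild type, with the SE of the limma fit; filled marks are called at an adjusted p under 0.05. All 25 endothelial genes lie left of 0 in both lines, Mcam at -1.23 is the lowest in line 20b, and Cspg4 is the 1 mural gene to the right of 0.

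Of the pericyte genes, those of the ATP-sensitive potassium channel fell in both lines. Kcnj8, its pore subunit, ranged from 10.40 to 11.04 in wild type (median 10.53), 9.34 to 10.29 in line 20b (median 10.01) and 9.21 to 10.18 in line 41 (median 9.59). Neither line overlapped wild type, and the falls were 1.56-fold (-0.65, SE 0.18, limma adjusted p = 0.0197) and 1.89-fold (-0.92, SE 0.18, limma adjusted p = 0.00432). Abcc9, its regulatory subunit, which muscle fibres express too, fell by 0.20 and 0.28 (SE 0.07), and its 2 other probe sets were called in neither line. The line 20b call of Abcc9 was lost in 14 of the 28 other settings.

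Rgs5, a G protein regulator and common pericyte marker, ranged from 14.69 to 15.13 in wild type (median 14.95), 14.47 to 14.71 in line 20b (median 14.66) and 13.95 to 14.63 in line 41 (median 14.43). Line 41 lay wholly below wild type and fell by 0.51 (SE 0.10, limma adjusted p = 0.00402), and line 20b was not called (-0.27, SE 0.10). A dimmer Rgs5 probe set fell in both lines (-0.75 and -0.72), and another fell in line 41 (-0.59) and not in line 20b (-0.14). Pdgfrb, the receptor through which PDGF-B recruits pericytes, ranged from 11.42 to 12.02 in wild type (median 11.61), 11.24 to 11.98 in line 20b (median 11.58) and 10.56 to 11.44 in line 41 (median 11.11). It fell in line 41 (-0.64, SE 0.15, limma adjusted p = 0.0112), where 1 mouse overlapped wild type, and not in line 20b (-0.09, SE 0.15). Its dimmer probe set read -0.07 in line 41 and -0.09 in line 20b, so the Pdgfrb call rests on the brighter of its probe sets.

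Notch3, the Notch receptor of mural cells, ranged from 11.30 to 11.63 in wild type (median 11.45), 10.52 to 11.30 in line 20b (median 10.95) and 10.57 to 11.08 in line 41 (median 10.98). It fell by 0.52 in each line (SE 0.12, limma adjusted p = 0.00414 and 0.00895), and 11 of the 12 line mice lay below all wild types. Angpt1, the ligand of Tek that mural cells secrete, was not called (-0.36 and -0.34, SE 0.14). Cspg4, the pericyte proteoglycan NG2, went the other way: it was not called at its brightest probe set in line 20b (0.58, SE 0.23) or line 41 (0.06), and its dimmer probe set rose in line 20b (0.84, SE 0.27, limma adjusted p = 0.0381). Line 20b mice 3 and 5 read 10.23 and 10.18 for Cspg4 and the other 4 read 9.20 to 9.36, while wild type ranged from 8.02 to 9.62.

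Of the smooth muscle genes, Myh11 and Tagln fell in both lines. Myh11, the smooth muscle myosin heavy chain, ranged from 10.34 to 10.70 in wild type (median 10.50), 9.60 to 10.09 in line 20b (median 9.96) and 9.41 to 10.29 in line 41 (median 9.86). Neither line overlapped wild type, and it fell 1.5-fold and 1.58-fold (-0.58 and -0.66, SE 0.12, limma adjusted p = 0.00278 and 0.00265). Tagln, an actin-binding protein of smooth muscle, lay below wild type in all 12 line mice and fell by 0.40 and 0.39 (SE 0.09). Cnn1, calponin of smooth muscle, read 6.22 to 6.83 in all 18 mice and was not called (-0.13 and -0.08, SE 0.09).

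**Figure D3:**
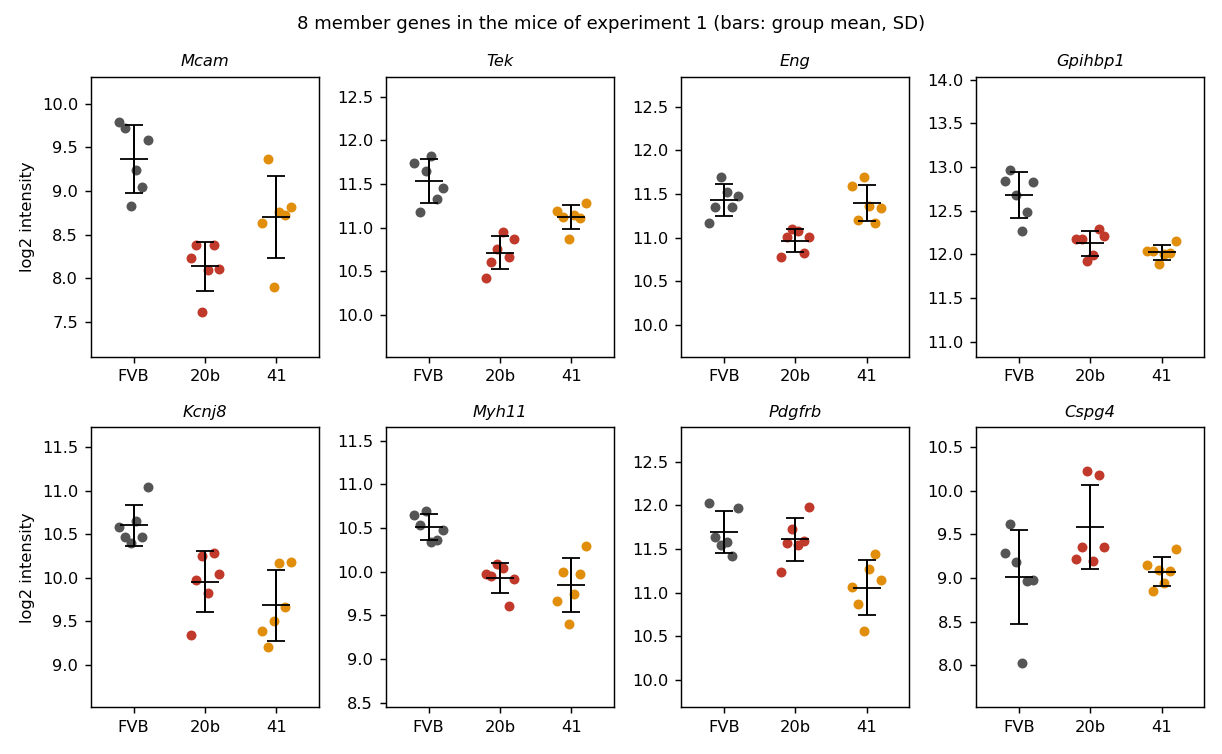
Log2 intensity of 8 genes in each mouse of experiment 1 (FVB wild type, line 20b and line 41, 6 mice each), with bars for group mean and SD, each panel spanning 3.2 log2 units. Tek, Kcnj8 and Myh11 separate line 20b from wild type, Eng is low in line 20b alone, Pdgfrb is low in line 41 alone, and Cspg4 is highest in 2 line 20b mice.

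The calls of the lines were then set side by side, keeping in mind that both share their wild-type mice. Of the 16 endothelial genes called lower in either line, 10 were called in both, which is 10 of the 15 of line 20b and 10 of the 11 of line 41. Cldn5, Eng, Kdr, Mcam and Robo4 were called in line 20b alone and Nos3 in line 41 alone. All 5 mural genes of line 20b were among the 7 of line 41, which added Pdgfrb and Rgs5. Further calls were lost in some of the 28 refits, in line 20b those of Aqp1 (12), Icam2 (10), Cldn5 (8), Kdr (7) and Robo4 (3), and in line 41 those of Tek (5), Icam2 (2), Abcc9 (2), Nos3 (1) and Pdgfrb (1). The direct test of line 20b against line 41 called 3 of the 35 genes. Over all genes, 2.33% were called lower in line 20b and 3.5% higher. Eng was lower in line 20b (-0.43, SE 0.10, limma adjusted p = 0.016), as was Tek (-0.41, SE 0.11, limma adjusted p = 0.0359), and Pdgfrb was higher (0.55, SE 0.15, limma adjusted p = 0.0315). The difference in Mcam was not called (-0.56), nor that in Nos3 (0.24). The Eng call held in all 28 refits at the same threshold, but not at an adjusted p under 0.01 or with a 1.5-fold change required, when 0 genes were called. The Tek call was lost in 12 of them, among these without any of line 20b mice 1, 2, 3 or 5 or line 41 mice 1, 2, 4, 5 or 6, when 1 endothelial gene was called. The Pdgfrb call was lost without any of line 20b mice 2 to 6 or line 41 mice 1 to 3, when 0 mural genes were called. A dimmer Rgs5 probe set was higher in line 20b than in line 41 (0.45), and the dimmer Pdgfrb probe set was not called (-0.02).

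Further endothelial markers from a longer list fell as well. Of 25 tested, 15 fell and 0 rose in line 20b (median -0.52), and 9 fell and 0 rose in line 41 (median -0.46). Among all genes, 10.2% were called lower in line 20b and 5.19% in line 41. Cavin2, a caveolar coat protein, fell by 0.96 and 0.95 (SE 0.12). In line 20b the thrombin receptor thrombomodulin Thbd (-0.86), the lectin Clec14a (-0.86) and the adhesion receptor Adgrl4 (-0.84) came next. In line 41 these were the matrix protein Mmrn2 (-0.76), caveolin Cav1 (-0.67) and the adhesion receptor Adgrf5 (-0.62). The protein C receptor Procr was lower in line 20b than in line 41 (-0.80, SE 0.16, limma adjusted p = 0.00519).

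Vascular ligands and signalling genes were called in smaller numbers. Of the 26 tested, 4 fell and 1 rose in line 20b (median -0.17), and 6 fell and 0 rose in line 41 (median -0.25). Among all genes, 10.2% were called lower and 8.71% higher in line 20b, and 5.19% and 3.74% in line 41. The line 20b counts lie near these shares. The chemokine Cxcl12 fell by 0.88 (SE 0.13) in line 20b, where it was also below line 41 (-0.48). The endothelial ETS factor Ets1 fell by 0.71 and 0.53, the VEGF and semaphorin co-receptor Nrp1 by 0.66 and 0.58, and the Notch ligand Jag1 by 0.51 and 0.52. Pdgfb, the ligand of Pdgfrb, rose in line 20b (0.72, SE 0.16, limma adjusted p = 0.00406). In line 41 the apelin receptor Aplnr (-0.83) and the arterial ephrin Efnb2 (-0.67) fell as well. The ligands Vegfa (-0.29 and -0.32) and Angpt2 (0.17 and 0.11) were not called, and these 2 genes are named after their values were seen.

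Further smooth muscle and pericyte genes were split in direction. Of 18 tested, 4 fell and 3 rose in line 20b (median -0.25), and 4 fell and 1 rose in line 41 (median -0.39). Among all genes, 10.2% were called lower and 8.71% higher in line 20b, and 5.19% and 3.74% in line 41. The nitric oxide receptor subunit Gucy1a1 fell by 0.81 and 1.16 (SE 0.13), and the regulatory myosin light chain Myl9 by 0.58 and 0.57. Those that rose, Mustn1 (2.88 and 2.52) and in line 20b Tpm2 (0.41) and Synpo2 (0.38), are also made by skeletal muscle fibres. Tpm2 and Synpo2 were higher in line 20b than in line 41 (0.26 and 0.33).

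Some markers of other cell types were called too, mainly in line 20b. Over all genes, 10.2% were called lower and 8.71% higher in line 20b, and 5.19% and 3.74% in line 41. Of 8 adipocyte markers 5 fell and 0 rose in line 20b (median -1.64), led by adiponectin Adipoq (-1.75, SE 0.47), and 0 changed in line 41 (median -0.72). Their mean was 9.54 to 10.15 in line 20b, 9.61 to 11.61 in line 41 and 10.26 to 13.17 in wild type, and Lep was under an intensity of 32 in all mice of both lines. The 4 wild-type mice with adipocyte means of 10.26 to 10.84 had endothelial means of 10.52 to 10.65, and the line 41 mice with adipocyte means of 11.34 and 11.61 had 10.15 and 10.19. Of 4 nerve and Schwann cell markers the myelin gene Mal fell in both lines (-1.47 and -1.14) and Mbp in line 20b (-1.03), with list means of 10.13 to 11.05 in wild type, 9.53 to 10.05 in line 20b and 9.34 to 10.36 in line 41. Of 11 fibroblast markers 2 fell in line 20b, Pi16 (-1.21) and decorin Dcn (-0.47), and 0 in line 41. Of 9 macrophage and leukocyte markers Cd68 rose in line 41 (1.46), and 0 changed in line 20b. Of 3 blood cell markers Alas2 fell in line 20b (-1.45), and 0 of 7 satellite cell genes changed in either line. Of 12 muscle fibre genes 2 rose (Myh1 and Mb) and 2 fell (Myh4 and Actn3) in line 20b, with changes of -0.17 to 0.33, and 0 changed in line 41. The part of these cell types in the vascular changes was not tested.

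**Figure D4:**
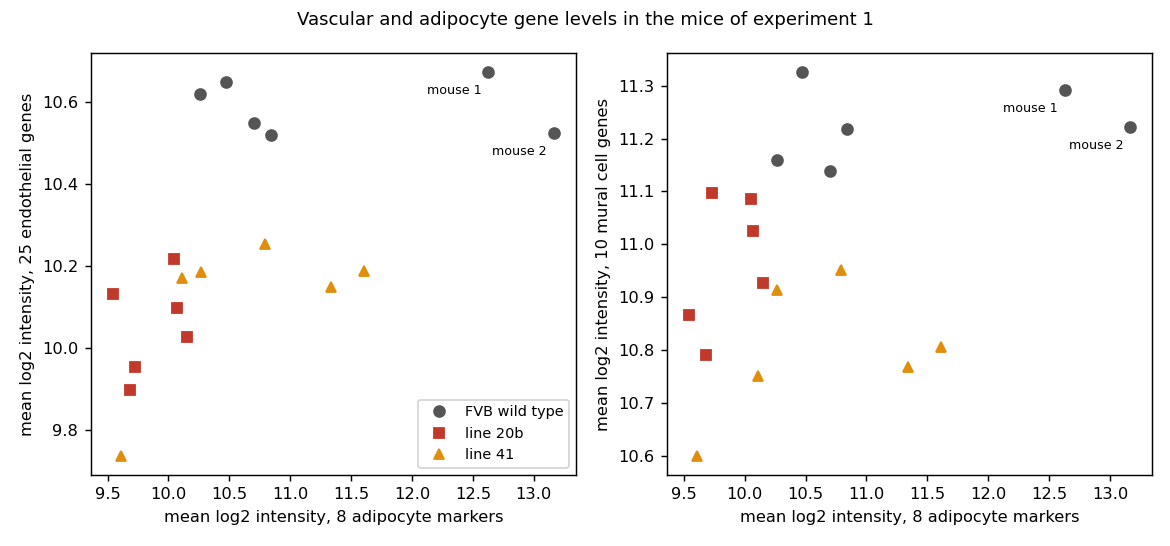
Mean log2 intensity of 8 adipocyte markers (horizontal axis) against that of the 25 endothelial genes (left) and 10 mural genes (right), 1 mark per mouse of experiment 1. Wild-type mice 1 and 2 lie far to the right at 12.63 and 13.17, and the other 4 wild-type mice lie above all line 20b and line 41 mice on the vertical axis.

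The comparison of Clcn1-null with BALB mice addresses myotonia without the repeat RNA. Of the 25 endothelial genes 2 rose, Gpihbp1 and Ramp2, and 0 fell, where 1.96% of all genes were called higher and 2.88% lower. Of the 10 mural genes 0 were called by limma, where 4 higher and 2 lower ones had an unadjusted p under 0.05, and with 3 mice a group a gene that was not called may still have changed. Medians were 0.26 (endothelial) and 0.31 (mural), against 0.016 over all genes, and 18 of 25 and 8 of 10 genes had a change above 0, while 47.9% of all genes had one below 0. Gpihbp1 read 12.74, 12.73 and 12.81 in Clcn1-null and 11.47, 11.72 and 11.40 in wild type. It rose 2.34-fold (1.23, SE 0.13, limma adjusted p = 0.0121) without overlap. Ramp2 read 12.03, 11.56 and 11.68 against 10.77, 10.49 and 10.85, and rose 2.08-fold (1.05, SE 0.18, limma adjusted p = 0.0377), also without overlap. Over 15 other settings at the same threshold the Gpihbp1 call was lost in 3 and the Ramp2 call in 8. The calls rested on single mice: 0 endothelial genes were called without BALB mouse 1 or 3, and 1 without BALB mouse 2 or Clcn1-null mouse 1 or 2. Without Clcn1-null mouse 3, 3 endothelial and 2 mural genes were called.

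Other vascular genes of Clcn1-null mice were large in change but not called. Pdgfrb read 13.72, 13.68 and 12.93 in Clcn1-null and 12.19, 12.53 and 12.50 in wild type (1.04, SE 0.25, limma adjusted p = 0.0848). Kcnj8 read 11.94, 12.09 and 11.81 against 11.23, 11.23 and 11.51 (0.63, SE 0.15, limma adjusted p = 0.0801), and Nos3 read 10.71, 10.48 and 10.89 against 9.996, 10.18 and 10.10 (0.60, SE 0.15, limma adjusted p = 0.0974). Groups did not overlap in these 3 genes. In all, 8 endothelial and 5 mural genes lay wholly above wild type, and Emcn, Vwf, Abcc9 and Angpt1 lay wholly below it. The share of all genes without overlap is not given here, so these separations are not read as a result. Pecam1, Tek and Esam were low in Clcn1-null mouse 3. Pecam1 read 9.84, 9.96 and 7.74, Tek 11.56, 11.47 and 10.10, and Esam 12.79, 12.63 and 11.26 in the 3 Clcn1-null mice. Their changes were 0.26, -0.41 and 0.28 with SE of 0.65, 0.41 and 0.42. Abcc9 was lower at all 3 probe sets (-0.40, -0.95 and -0.58), of which the one at -0.95 was called (limma adjusted p = 0.038). Angpt1 was not called (-0.80, SE 0.24).

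Adipocyte markers were far higher in the same mice: 6 of 7 rose and 0 fell (median 2.56), with means of 12.46 to 12.88 in Clcn1-null and 9.90 to 10.44 in wild type. Among all genes, 1.96% were called higher and 2.88% lower in this comparison. Of 10 macrophage and leukocyte markers Cd68 rose (3.25), and the myelin gene Pmp22 was the 1 of 4 nerve markers to rise (0.75). Of 12 muscle fibre genes 3 fell and 1 rose. Of 11 fibroblast, 3 blood cell and 5 satellite cell markers 0 were called. Of 27 further endothelial markers 0 were called (median 0.17), as were 0 of 24 vascular signalling genes, and of 19 further smooth muscle genes Mustn1 (1.86) and smooth muscle actin Acta2 (0.64, SE 0.11, limma adjusted p = 0.0396) rose. The part of adipose tissue in the rise of Gpihbp1 and Ramp2 was not tested.

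The comparison of Mbnl1-null with FVB mice addresses loss of the regulator without the repeat. The median change was 0.01 over 25 endothelial and 0.10 over 9 mural genes, against -0.005 over all genes. Of the endothelial genes 3 passed the threshold downward, Mcam, Sox18 and Nos3, and 0 rose. In Mcam 2 of the 5 Mbnl1-null mice lay under the filter, which it passed through the wild-type mice alone. Mcam is therefore not read as a result here. Of the mural genes 0 fell, and Cspg4 alone passed the threshold upward. Because 3 of its 5 wild-type mice lay under the filter, which it passed through the Mbnl1-null mice alone, it is not read as a result. Among all genes 8.11% were called lower and 8.01% higher, which leaves the 3 of 25 near the background. Genes that fell in both lines were not called here, among them Tek (-0.01, SE 0.17), Ptprb (-0.02, SE 0.11), Gpihbp1 (0.22, SE 0.16), Kcnj8 (0.12, SE 0.23) and Myh11 (0.10, SE 0.11). Whether these changes differ from those of the lines was not tested, because the experiments are on different scales and arrays.

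Mcam read 6.34, 6.13, 6.49, 6.87 and 5.89 in the wild-type mice and 4.58, 5.70, 5.88, 5.32 and 4.53 in the Mbnl1-null mice. The groups did not overlap, and 2 of the 5 Mbnl1-null mice lay under the intensity of 32. Mcam passed the filter through the wild-type mice alone, so its difference of -1.14 is given with no test. Sox18 read 8.10, 7.86, 7.88, 8.14 and 7.93 in wild type and 7.36, 7.36, 7.31, 5.69 and 6.93 in Mbnl1-null, without overlap, and fell 2.07-fold (-1.05, SE 0.28, limma adjusted p = 0.0281). Its mouse at 5.69 is Mbnl1-null mouse 4. Nos3 read 7.55, 6.996, 7.001, 6.96 and 7.27 against 6.58, 6.50, 6.99, 6.41 and 6.67, with overlap in 1 mouse (-0.53, SE 0.15, limma adjusted p = 0.0344). Without wild-type mouse 1 or wild-type mouse 2, 1 endothelial gene passed the threshold, which was Mcam. Cspg4 read 4.76, 4.77, 5.12, 5.10 and 4.78 in wild type, where 3 of 5 mice lay under an intensity of 32, and 5.16, 6.20, 6.05, 6.00 and 5.30 in Mbnl1-null. It passed the filter through the Mbnl1-null mice alone, so its difference of 0.83 is given with no test. Without Mbnl1-null mouse 1 or 5, 2 mural genes passed the threshold, Cspg4 among them. Over other settings at the same threshold, the Nos3 call was lost in 8 of 18 and the Sox18 call in 5 of 19.

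Angpt1 was lower in Mbnl1-null mice at both probe sets. The brighter read 9.62, 9.28, 9.34, 9.05 and 9.09 in wild type and 9.35, 8.80, 8.88, 8.18 and 7.59 in Mbnl1-null and was not called (-0.72, SE 0.28, limma adjusted p = 0.106), while the dimmer one fell (-0.84, SE 0.20, limma adjusted p = 0.0175). Among all genes 8.11% were called lower and 8.01% higher in this comparison. Of 24 further endothelial markers Thbd (-0.86) and Procr (-0.70) fell and 0 rose (median -0.03). These 2 of 24, and the 2 of 21 vascular signalling genes that follow, lie near the share of all genes called lower. Of 21 vascular signalling genes Vegfa (-0.56, SE 0.12, limma adjusted p = 0.011) and the BMP receptor Bmpr2 (-0.23) fell, and of 17 further smooth muscle genes Mustn1 rose (2.61). Of 8 macrophage and leukocyte markers Cd68 (1.91) and Mrc1 (0.70) rose, of 11 fibroblast markers Mfap5 and Lum rose and Pi16 fell, and of 12 muscle fibre genes 2 fell. Of 7 adipocyte, 4 nerve, 1 blood cell and 4 satellite cell markers 0 were called.

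**Figure D5:**
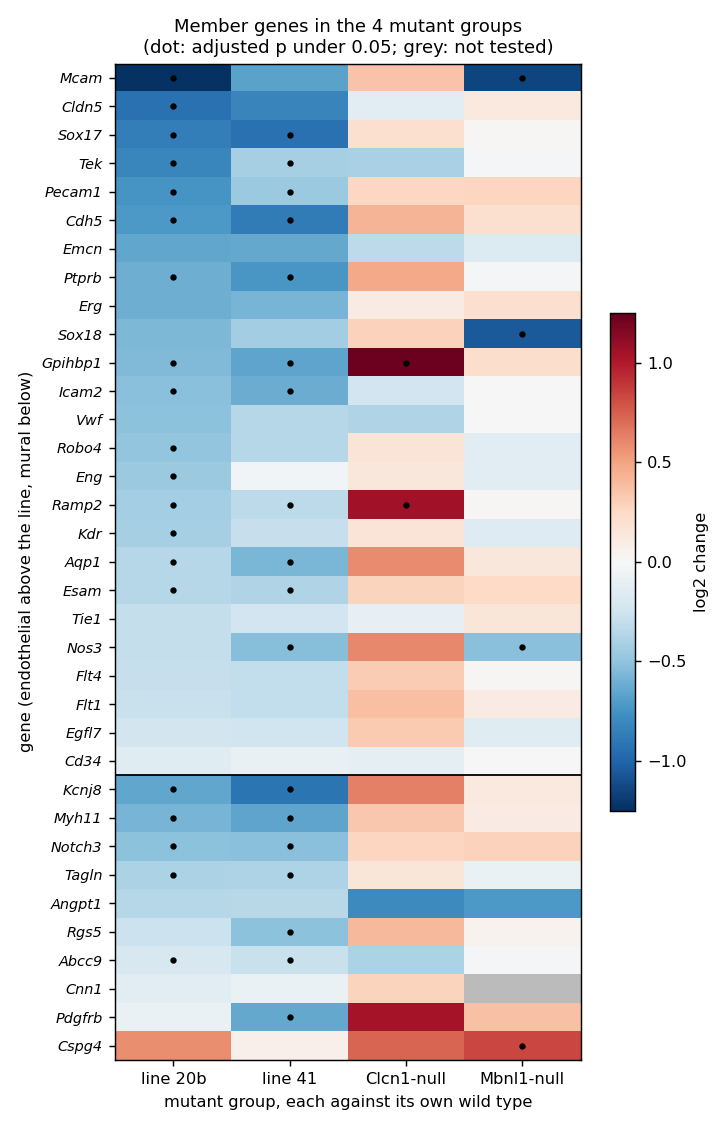
Log2 change of each gene in the 4 mutant groups against their own wild types, as colour from blue (lower) to red (higher), with a dot where the gene was called and grey where it was not tested. Line 20b and line 41 are blue in 34 of 35 rows, Clcn1-null is red in 18 of 25 endothelial rows, and Mbnl1-null has its strongest colours at Mcam, Sox18, Angpt1 and Cspg4. The Mbnl1-null dots of Cspg4 and Mcam are not read as results. Cspg4 passed the filter through the Mbnl1-null mice alone, and Mcam through their wild-type mice alone.

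Nos3, Gpihbp1 and Ramp2 were called in groups of different kinds, and Mcam and Cspg4 were not. Mcam was called lower in line 20b (-1.23), and its Mbnl1-null difference (-1.14) is given with no test. It was not called in line 41 (-0.67) or in Clcn1-null (0.36), where its mice read 9.28, 9.04 and 9.01 against 8.98, 8.49 and 8.78. Cspg4 was above 0 in all 4 groups at its brightest probe set (0.58, 0.06, 0.73 and 0.83), while its dimmer probe set read -0.24 in Clcn1-null, and neither was called there. Its brightest probe set was called in neither line, and its Mbnl1-null difference is given with no test. Nos3 was called lower in line 41 and Mbnl1-null. Gpihbp1 was called lower in both lines and higher in Clcn1-null, and Ramp2 likewise, with the losses of the Ramp2 calls given above.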

How the data were processed

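Total RNA of quadriceps was labelled with biotin and hybridised to the Affymetrix 430A and 430B arrays (experiments 1 and 2) or the 430 2.0 array (experiment 3), per the labels. The deposited tables hold linear intensities per probe set. The authors computed these intensities with GCRMA, per the submitters' processing notes, and its version and settings are not given in the sources used here. GCRMA models background from probe sequence, so levels near background are uncertain, and a probe set can read only some transcripts of its gene.

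The deposited intensities were converted to log2. Of 45037 probe sets, 34945 had 1 gene symbol, 932 several and 9160 none. A probe set was tested when it reached log2 5 (intensity 32) in a number of mice no smaller than the smallest group, which kept 27330, 25944 and 16229 in experiments 1 to 3. Linear models with 1 mean per group were fitted per experiment in limma 3.58.1 (R 4.3.3; lmFit, then trended eBayes, two-sided), with Benjamini-Hochberg adjustment over all its probe sets. On simulated data the fit missed some planted changes in each experiment, and all of them in experiment 2. A gene is its brightest probe set over the 3 experiments. P-values measure the spread between the mice sampled, and the number of arrays limits the precision. The members and gene lists were chosen with earlier results of these data known. Named genes are all 35 members, Clcn1 and Mbnl1, and up to 4 called genes with the largest change of each list and comparison. Some were left out for length. Genes named outside this rule are marked. Same-numbered mice did not deviate together throughout (correlations of -0.14 to 0.31 in experiment 1, -0.15 to 0.09 in experiment 2 and 0.02 to 0.40 in experiment 3). The mouse of the same number was the best match in 8 of 18 cases in experiment 1, 1 of 3 in experiment 2 and 2 of 5 in experiment 3. Whether these matches exceed what chance gives was not tested. The titles do not say that numbers pair mice, so no block was used in the main fit. Alternatives covered scaling, filter, probe set choice, array weights, thresholds, a block and each mouse left out.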

Additional observations from a re-analysis of the deposited data

Results flagged for a closer look

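In groups of 5 or 6 mice, 20 of 173 groups of values had 1 mouse apart from the rest by Dixon's ratio, of which chance flags about 5%. In line 20b mouse 1 was the lowest in Pecam1 (10.01), Flt4 (8.8), Emcn (9.47) and Rgs5 (14.47), mouse 3 in Mcam (7.61), mouse 5 in Myh11 (9.6) and Tagln (10.46), and mouse 4 in Cnn1 (6.22). In line 41 mouse 3 was the lowest in Cdh5 (8.73), Emcn (8.89) and Notch3 (10.57), and mouse 1 in Egfl7 (11.59). In FVB wild type of experiment 1, mouse 6 was the highest in Pecam1 (11.51), Tie1 (10.29) and Esam (12.2), and mouse 2 the lowest in Cd34 (11.5). In experiment 3, Mbnl1-null mouse 3 was the highest in Cldn5 (7.37), mouse 5 the highest in Flt1 (8.37) and mouse 4 the lowest in Sox18 (5.69), and wild-type mouse 2 was the lowest in Kcnj8 (7.57).

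The direct test between the transgenic lines called 3 genes: Eng (-0.43) and Tek (-0.41) were lower and Pdgfrb (0.55) higher in line 20b than in line 41.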

How the results depend on the processing

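No called gene changed direction in any alternative run. Over quantile normalisation and a median shift, 25 of 25 endothelial genes stayed below 0 in both lines. In line 20b, 15 endothelial genes were called, with 7 at an adjusted p under 0.01, 7 with a 1.5-fold change required, and 10 to 17 with each mouse left out. Its 5 mural genes became 3 with a majority of probe sets, 3 at 0.01 and 1 with 1.5-fold. In line 41, 11 endothelial genes became 3 at 0.01, 5 with 1.5-fold, 7 without wild-type mice 1 and 2, and 6 to 11 with each mouse left out, and its 7 mural genes became 4 with a majority of probe sets and 3 with 1.5-fold.

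Between the lines, the 2 endothelial genes became 1 with quantile normalisation, 1 with a median shift, 1 with no filter, 1 with a majority of probe sets, 0 at 0.01, 0 with 1.5-fold and 1 to 3 with each mouse left out. The 1 mural gene became 0 with no filter, 2 with any probe set, 0 with a majority, 0 at 0.01, 0 with 1.5-fold and 0 to 1 with each mouse left out.

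In Clcn1-null mice the 2 endothelial genes became 1 with a median shift, 1 with no filter, 10 with array weights, 0 at 0.01 and 0 to 3 with each mouse left out. The 0 mural genes became 2 with quantile normalisation, 6 with array weights, 1 with any probe set and 0 to 2 with each mouse left out. The weights did not converge there. In Mbnl1-null mice the 3 endothelial genes became 1 with no filter, 1 with a filter at log2 7, 0 at 0.01 and 1 to 3 with each mouse left out. Mcam, which is among the 3, is not read as a result. The 1 mural gene, Cspg4, is not read as a result. The mural count became 0 with the filter at 7, 3 with array weights, 2 with any probe set, 0 at 0.01 and 1 to 2 with each mouse left out. Fewer genes are tested under the higher filter, and Cspg4 is not among them. The causes of the other shifts were not tested.

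With a replicate block, 0 endothelial genes were called in Clcn1-null mice and 2 mural genes in Mbnl1-null mice, Cspg4 among them. No other count moved by over 1.5 times. The numbers were not shown to pair mice.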
